A study of Mus musculus with 26 samples.

Results

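The genes described here are the replication-dependent histone genes, which encode most of the H1, H2A, H2B, H3 and H4 protein that packages newly copied DNA. They were taken as every row whose symbol starts with Hist1h, Hist2h, Hist3h or Hist4h, which gave 68 symbols. Levels are in FPKM, fragments scaled to transcript length and library depth. Of the 68 symbols, 59 reached 1 FPKM or more in at least 4 of the 26 libraries and were tested, among 11663 tested symbols of 23168 in all. The 59 genes are 4 of 6 H1, 17 of 18 H2A, 16 of 19 H2B, 9 of 12 H3 and all 13 H4 symbols. By cluster, 48 lie in Hist1 on chromosome 13, 8 in Hist2 on chromosome 3, 2 in Hist3 on chromosome 11 and 1 in Hist4 on chromosome 6. Hist4h4 passed the limit with 4 libraries, and Hist1h3f and Hist2h3c2 missed it with 3.

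The other 9 symbols were not tested. Hist1h1t, the testis linker histone, was listed at 0 in all libraries. Hist1h1d reached at most 0.926 FPKM, Hist3h2bb-ps 0.656, Hist1h2be 1.36, Hist1h3f 1.57, Hist2h3c1 1.44, Hist2h3c2 1.40 and Hist1h2aa 4.54 FPKM. Hist1h2br was absent from some of the files and was left out.

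Replication-dependent histone genes are transcribed in S phase, when a dividing cell copies its DNA and needs new nucleosomes. An H3-H4 tetramer and a pair of H2A-H2B dimers form the nucleosome core, and H1 binds the linker DNA between cores. Their mRNAs usually end in a short stem-loop in place of a poly(A) tail. SLBP, the stem-loop binding protein, and the U7 particle guide that 3' end cut. A few members are known to give polyadenylated transcripts as well, in particular in cells that have left the cell cycle. Invariant NKT cells in the thymus pass through an expanding, NK1.1-negative phase before they become NK1.1-positive and mostly leave the cycle.

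All libraries came from C57BL/6 mice of 6 to 8 weeks. DN1eP cells (4 libraries) are thymic precursors gated as lineage-negative, CD44+, CD25-, CD24low, CD5+, CD27+, Ly108- and CXCR3+, without a Valpha14Jalpha18 T cell receptor on the surface. DN1eP-NKT cells (4 libraries) were grown from DN1eP for 10 days on OP9/Dll-1 stroma, a bone marrow stromal line that presents a Notch ligand, with 5 ng/ml IL-2 and 5 ng/ml IL-7. They carry the receptor, as do thymic NKT-1 (CD44-, NK1.1-, 5 libraries), NKT-2 (CD44+, NK1.1-, 7) and NKT-3 cells (CD44+, NK1.1+, 6). Nothing in the labels ties replicates to different animals, and the p-values therefore reflect only how these samples vary, which may be technical.

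The libraries fall into 2 sets with different value scales, and comparisons were made inside a set. Set A holds NKT-1 libraries 1 and 2, NKT-2 libraries 1 to 4, NKT-3 libraries 1 to 3 and all DN1eP-NKT libraries. Set B holds all DN1eP libraries, NKT-1 libraries 3 to 5, NKT-2 libraries 5 to 7 and NKT-3 libraries 4 to 6. Genes listed from 1 FPKM upward had a median of 12.97 to 13.85 FPKM in set A and of 7.58 to 9.81 in set B. The labels name 2 library kits without saying which library had which. Depth also varied. At 20 to 100 FPKM, the deposited confidence intervals reached 5.53% to 7.61% to either side in library 1 of DN1eP, DN1eP-NKT, NKT-1 and NKT-2 and in all 9 thymic libraries of set B, and 15.3% to 23.7% in the other 13.

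Some libraries stand apart. In set B, NKT-2 libraries 6 and 7 and NKT-3 libraries 5 and 6 listed Mir682 at 68980 to 107000 FPKM, against at most 1079 elsewhere. Of the marker lists, all 6 T cell and NKT genes were at 1 FPKM or more in every library except NKT-3 library 5, with 5 of 6. Summed stroma markers were 74.4 to 385 FPKM in DN1eP-NKT and at most 3.26 in the other groups. Summed myeloid and mast markers were 62.0 to 392 FPKM in DN1eP and 0 to 62.0 FPKM in the other groups. In DN1eP the summed B cell markers were 21.2 to 48.7 FPKM, with only 1 to 2 of the 6 genes at 1 FPKM or more. NKT-3 library 5 held erythroid markers at 827 FPKM and B cell markers at 40.9, and NKT-2 library 6 at 199 and 136 FPKM. The part of these cells in the histone values was not tested.

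The stem-loop is the feature that sets these transcripts apart, so its versions are shown here. It was searched in GENCODE M21 transcripts (GRCm38) as a 16-base run, with 2 arms of 6 bases around a loop of 4 bases. At least 1 transcript of 40 of the 59 genes held it, against 14 of 21810 other protein-coding symbols (0.0642%). The capitals mark the arms, which pair with each other, and each sequence is written 5' to 3' as DNA.
H1, H2A, H2B and H3 form, 22 genes: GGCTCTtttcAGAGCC
H4 form, 7 genes: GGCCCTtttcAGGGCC
H2B and H3 form, 4 genes: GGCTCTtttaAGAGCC
Hist1h4i and Hist2h4: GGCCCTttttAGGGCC
Hist1h4b and Hist1h4j: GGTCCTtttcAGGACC
The remaining 3 genes, Hist1h4a, Hist1h3g and Hist2h2ac, each had a form of their own. No match in the other 19 genes says only that these letters are not in the annotated transcript, which for many members ends with the coding part. In Hist1h1c the transcript runs on for 840 bases past the stem-loop, in Hist1h4d for 770 and in Hist1h4i for 330, while in Hist1h2bj it ends 23 bases after it.

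Promoters are shown for 3 members on which the results turn, Hist1h2bj and Hist1h4i, with some of the largest differences, and Hist1h1c, which went the other way. Each is the 250 bases before the transcription start in RefSeq (GRCm38.p6), 5' to 3' on the strand of the gene. Capitals mark matches on either strand to the CCAAT box, to the TATA box TATAAA and to the linker histone element AAACACA.
Hist1h2bj, chr13:22042948-22043197, plus strand: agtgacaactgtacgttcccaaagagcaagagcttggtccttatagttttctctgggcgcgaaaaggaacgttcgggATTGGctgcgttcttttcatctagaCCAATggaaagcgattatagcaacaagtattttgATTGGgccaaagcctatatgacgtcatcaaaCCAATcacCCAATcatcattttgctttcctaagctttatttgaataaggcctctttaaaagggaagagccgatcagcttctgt
Hist1h4i, chr13:22041363-22041612, minus strand: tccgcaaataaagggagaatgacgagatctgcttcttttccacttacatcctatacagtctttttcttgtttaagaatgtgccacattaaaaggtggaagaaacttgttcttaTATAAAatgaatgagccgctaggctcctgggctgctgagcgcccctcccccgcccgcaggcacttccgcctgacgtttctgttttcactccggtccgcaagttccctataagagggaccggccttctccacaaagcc
Hist1h1c, chr13:23738557-23738806, plus strand: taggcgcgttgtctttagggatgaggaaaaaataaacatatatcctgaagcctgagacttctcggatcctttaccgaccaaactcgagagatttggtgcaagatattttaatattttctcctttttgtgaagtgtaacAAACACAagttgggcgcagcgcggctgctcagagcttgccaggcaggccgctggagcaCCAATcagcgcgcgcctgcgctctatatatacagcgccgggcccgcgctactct
Promoter windows of 300 bases (250 before to 50 after the start, both strands searched) matched 54 of the 59 genes, all but Hist1h2ap, Hist1h2bc, Hist1h3a, Hist2h2be and Hist2h4. CCAAT was present in all 4 H1, 16 H2A, 14 H2B and 8 H3 windows, in 3 of 12 H4 windows and in 37.4% of all RefSeq windows. The octamer ATTTGCAT was present in 6 of 16 H2A and 6 of 14 H2B windows, in none of the other families and in 1.74% of all windows. AAACACA, the H1 box, was present in 3 of 4 H1 windows and in 7.18% of all windows. TATAAA was present in 3 of 4 H1, 10 of 16 H2A, 8 of 14 H2B, 4 of 8 H3 and 8 of 12 H4 windows and in 13.6% of all. None of these motifs contains another, and a match is a description of the letters only. In 8 places an H2A and an H2B gene start head to head, 164 to 249 bases apart, Hist1h2ag and Hist1h2bj being the widest pair.

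The values have further limits. Most of these mRNAs lack a poly(A) tail, and what part of them the libraries captured was not tested. In the GENCODE transcripts, a median 49.5% of the 50-base windows of a member recur in another member. By family the median was 78.9% in H2A, 60.4% in H3, 42.1% in H2B, 39.5% in H4 and 4.25% in H1. The deposited values show the same sharing. In NKT-2 library 4, Hist1h4a, Hist1h4b, Hist1h4c, Hist1h4j and Hist1h4k were all listed at 0.726 FPKM. Values of single H2A, H3, H2B and H4 genes are therefore uncertain, and the called genes of a family are not all separate measurements. How shared reads were divided is not stated, and whether family sums are firmer was not tested. In addition, 40 of the 59 deposited gene models (mm9) span at most 500 bases, little more than the coding part. Many values in deep thymic libraries lay above their own deposited interval. Among members with 1 row and at least 1 FPKM, it was 31 of 40 in NKT-1 library 4 and 28 of 40 in NKT-3 library 5. It was 0 of 17 in DN1eP library 2 and 2 of 17 in the deep DN1eP library 1. The part of this in the comparisons was not tested.

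Summed over the 59 genes, histone transcripts were higher in NKT-1 and NKT-2 than in NKT-3 and DN1eP-NKT within set A, and within set B they were lowest in DN1eP. In set A the sums were 344 and 310 FPKM in NKT-1 libraries 1 and 2. They were 357, 180, 239 and 287 FPKM in NKT-2 libraries 1 to 4, and 71.6, 120 and 112 in NKT-3 libraries 1 to 3. DN1eP-NKT libraries 1 to 4 had 112, 152, 125 and 176 FPKM. All NKT-1 and NKT-2 libraries of set A thus lay above all NKT-3 and DN1eP-NKT libraries, and the last 2 groups overlapped.

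In set B the sums were 64.7, 78.1, 83.1 and 101.3 FPKM in DN1eP libraries 1 to 4. NKT-1 libraries 3 to 5 had 534, 537 and 302 FPKM and NKT-2 libraries 5 to 7 had 512, 654 and 558. NKT-3 libraries 4 to 6 had 169, 382 and 391 FPKM. Every thymic library of set B lay above every DN1eP library. Among the NKT-3 libraries, number 4 was the low one, and the other 2 are those with high Mir682.

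**Figure D1:**
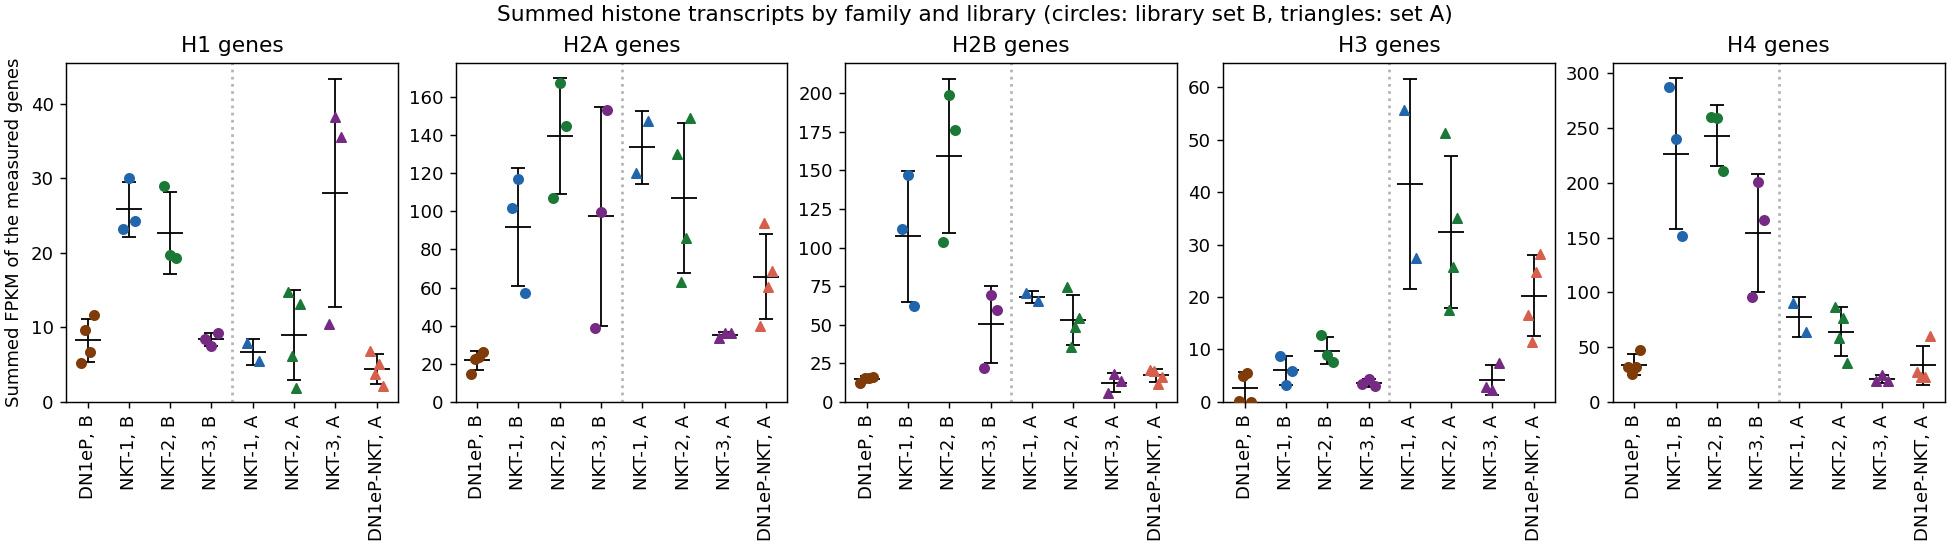
Summed FPKM of the tested genes of each histone family (y axis, from 0) in each library, by group and library set (x axis); the long tick is the mean and the error bar the SD over libraries. H3 sums were 27.4 and 55.7 FPKM in set A NKT-1 against 3.31 to 8.82 in set B, and H4 sums were 64.3 and 90.5 against 152 to 288.

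The 2 sets differed in which families carried the sum. H4 genes made 42.3% to 49.5% of the mean sum in the thymic groups of set B and 20.7% to 24.2% in those of set A. H2A genes made 34.9% to 40.8% in set A and 20.1% to 31.0% in set B. H3 genes made 4.13% to 12.7% in set A and 1.15% to 1.70% in set B. In the NKT-3 libraries of set A, H1 genes alone made 27.8%, nearly all of it Hist1h1c.

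**Figure D2:**
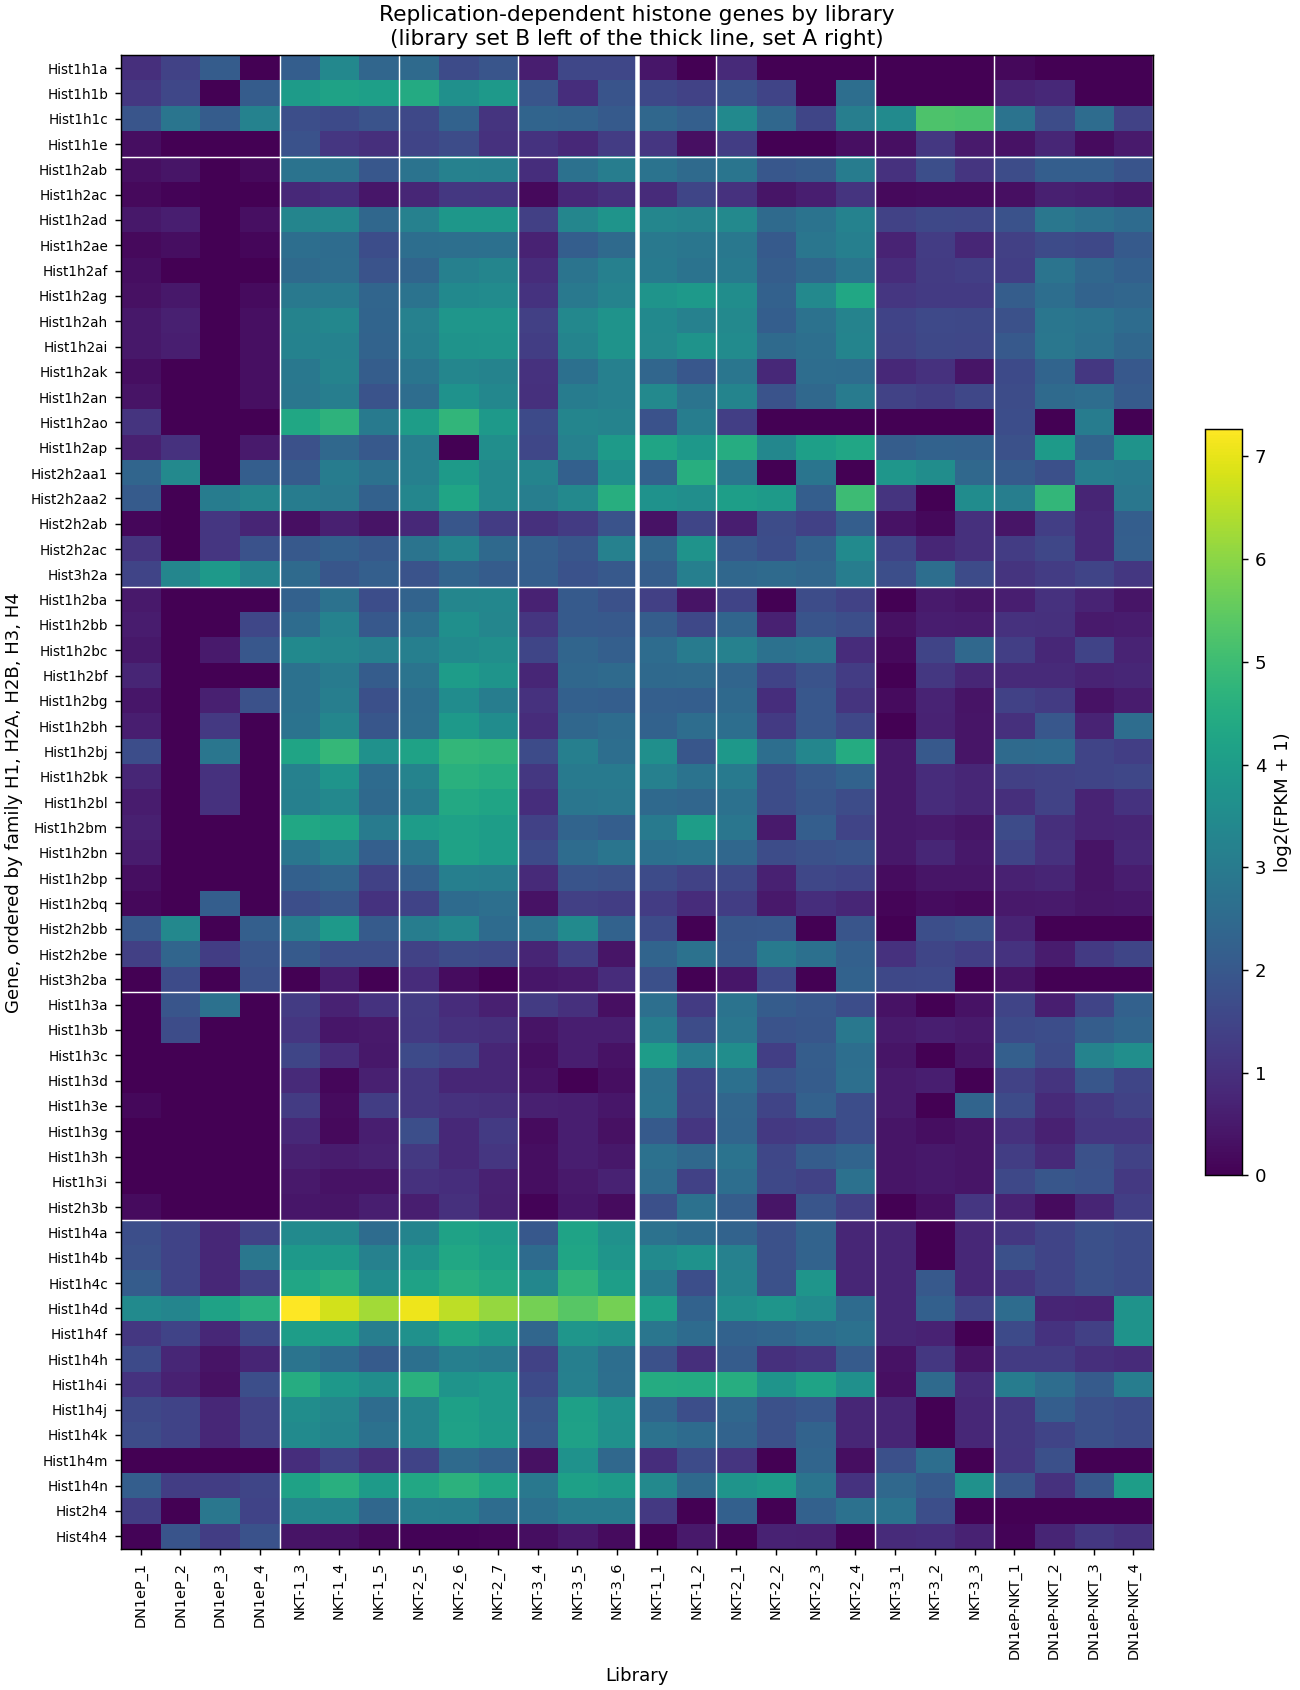
Level of the 59 histone genes (rows, by family) in the 26 libraries (columns, by set and group), as log2(FPKM + 1) in colour. Dark columns are DN1eP in set B and NKT-3 in set A, and the brightest cells are those of Hist1h4d in set B, which reached 153 FPKM in NKT-1 library 3.

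The step from NKT-2 to NKT-3 asks how the genes change as cells gain NK1.1. In set A, 38 of the 59 genes fell and 1 rose (limma adjusted p under 0.05). Over all tested genes, 28% were called, 16.4% lower and 11.6% higher. The median difference of the members was -1.27 in log2(FPKM + 1), and that of all tested genes was -0.03. Each core family took part, with 11 of 17 H2A, 12 of 16 H2B, 7 of 9 H3 and 7 of 13 H4 genes lower and none higher. For 32 members every NKT-3 library lay below every NKT-2 library, as for 20% of all tested genes.

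Hist1h4i, an H4 gene at chr13:22132685-22133221 (mm9), fell most. It was at 21.9, 12.4, 17.7 and 11.5 FPKM in NKT-2 libraries 1 to 4 and at 0.228, 4.66 and 0.813 in NKT-3 libraries 1 to 3. No NKT-3 library reached the NKT-2 range, and the difference was -2.82 (SE 0.42, limma adjusted p = 0.000182). Its neighbours Hist1h2bj (H2B, chr13:22135099-22135479) and Hist1h2ag (H2A, chr13:22134346-22134818), which start head to head, fell as well. Hist1h2bj was at 13.5, 5.20, 9.06 and 21.3 FPKM in NKT-2 and at 0.393, 3.11 and 0.326 in NKT-3. Its difference was -2.60 (SE 0.55, limma adjusted p = 0.00336). Hist1h2ag was at 10.9, 3.81, 9.74 and 19.1 FPKM in NKT-2 and at 1.20, 1.38 and 1.34 in NKT-3. This gene differed by -2.20 (SE 0.34, limma adjusted p = 0.00019). For both genes the 2 stages did not overlap.

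Hist1h3c, an H3 gene, fell by 2.14 on the same log2 scale (SE 0.51, limma adjusted p = 0.00627). It was at 10.8, 1.55, 3.46 and 5.16 FPKM in NKT-2 and at 0.336, 0 and 0.340 in NKT-3. Among other called genes, H3 members such as Hist1h3d (-1.95) and Hist1h3a (-1.90) and H2A members such as Hist1h2ap (-1.84) and Hist1h2ae (-1.81) fell in the same way. Among further H2B members, Hist1h2bk fell by 1.52 and Hist1h2bq by 0.71 on the log2 scale.

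Hist1h1c, the gene for linker histone H1.2, was the 1 member that rose. It was at 9.84, 4.35, 1.87 and 7.69 FPKM in NKT-2 libraries 1 to 4 and at 10.2, 36.9 and 35.1 in NKT-3 libraries 1 to 3. The groups did not overlap, although the lowest NKT-3 and the highest NKT-2 library were close, and the difference was 2.01 (SE 0.52, limma adjusted p = 0.0119). The call was lost without NKT-3 library 2 (1.70, limma adjusted p = 0.0526) or without NKT-3 library 3 (1.74, limma adjusted p = 0.055), and without a filter on low values (2.01, limma adjusted p = 0.0574). Another linker gene, Hist1h1b (H1.5), fell by 1.48 on the log2 scale. Of the other genes with known polyadenylated transcripts, Hist2h2be (H2B) went from 3.01, 6.99, 5.39 and 3.66 FPKM to 1.04, 1.84 and 1.55. This was a fall of 1.18 on the log2 scale (SE 0.29, limma adjusted p = 0.00634). Hist1h2bc (H2B) differed by -1.03 and was not called (limma adjusted p = 0.184).

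In set B the same step gave 7 lower members and no higher one, where 7.12% of all tested genes were called and 4.75% were lower. These were Hist1h1b, Hist1h2bm, Hist1h2bf, Hist1h4i, Hist1h2ba, Hist1h2bp and Hist1h3g, and 6 of them (all but Hist1h2ba) were lower in set A too. The median difference of the members was -0.74, against -0.07 for all tested genes. Without NKT-3 library 4, 5 or 6 the count was 2, 4 or 3, and without NKT-2 library 7 it was 3. Without the 4 libraries with high Mir682, 0 members were called and 25 had an unadjusted p under 0.05, with a median of -1.35, where 0.266% of all tested genes were called. That setting leaves 1 NKT-2 and 1 NKT-3 library, whose spread is assumed to be that of the other groups. NKT-3 library 5, with a high erythroid sum, is among those 4.

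Hist1h1b showed the largest difference in set B. It was at 20.6, 11.4 and 14.3 FPKM in NKT-2 libraries 5 to 7 and at 2.75, 0.948 and 2.68 in NKT-3 libraries 4 to 6. No library overlapped, and the difference was -2.42 (SE 0.44, limma adjusted p = 0.0029). Hist1h2bm, an H2B gene, was at 15.1, 16.8 and 15.4 FPKM in NKT-2 and at 1.64, 4.03 and 3.54 in NKT-3. It differed by -2.09 (SE 0.37, limma adjusted p = 0.00208) with no overlap.

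Hist1h2bf (-1.62, SE 0.46, limma adjusted p = 0.0457) and Hist1h4i (-1.60, SE 0.44, limma adjusted p = 0.037) lay just past the threshold, and both calls were lost under a pseudocount of 0.1, without a filter and under either scaling (limma adjusted p = 0.0752 to 0.187). Leaving out single libraries ended them too, NKT-2 library 7 or NKT-3 library 4 for both. Hist1h1b was lost with the pseudocount of 0.1 (limma adjusted p = 0.11). Hist1h4i was at 23.7, 12.5 and 13.9 FPKM in NKT-2 and at 2.12, 8.03 and 5.35 in NKT-3. Here too the stages did not overlap. Hist1h1c was at 1.98, 3.84 and 1.14 FPKM in NKT-2 and at 4.11, 3.86 and 3.18 in NKT-3, a difference of 0.58 that was not called (limma adjusted p = 0.456). No H2A gene was among the 7.

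The difference between the sets in this step was tested itself. In a fit of the 18 thymic libraries, 0 of the 59 genes had a set by stage term past the threshold, where 0.403% of all tested genes did, 0.0943% upward and 0.309% downward. With an unadjusted p under 0.05 there were 9 members, 6 of them H3 genes. For Hist1h1c the term was 1.42 (SE 0.63, limma adjusted p = 0.655). In all, 49 of the 59 genes had a negative difference in both sets, and 3 had a positive one in both, Hist1h1c, Hist1h4m and Hist4h4.

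**Figure D3:**
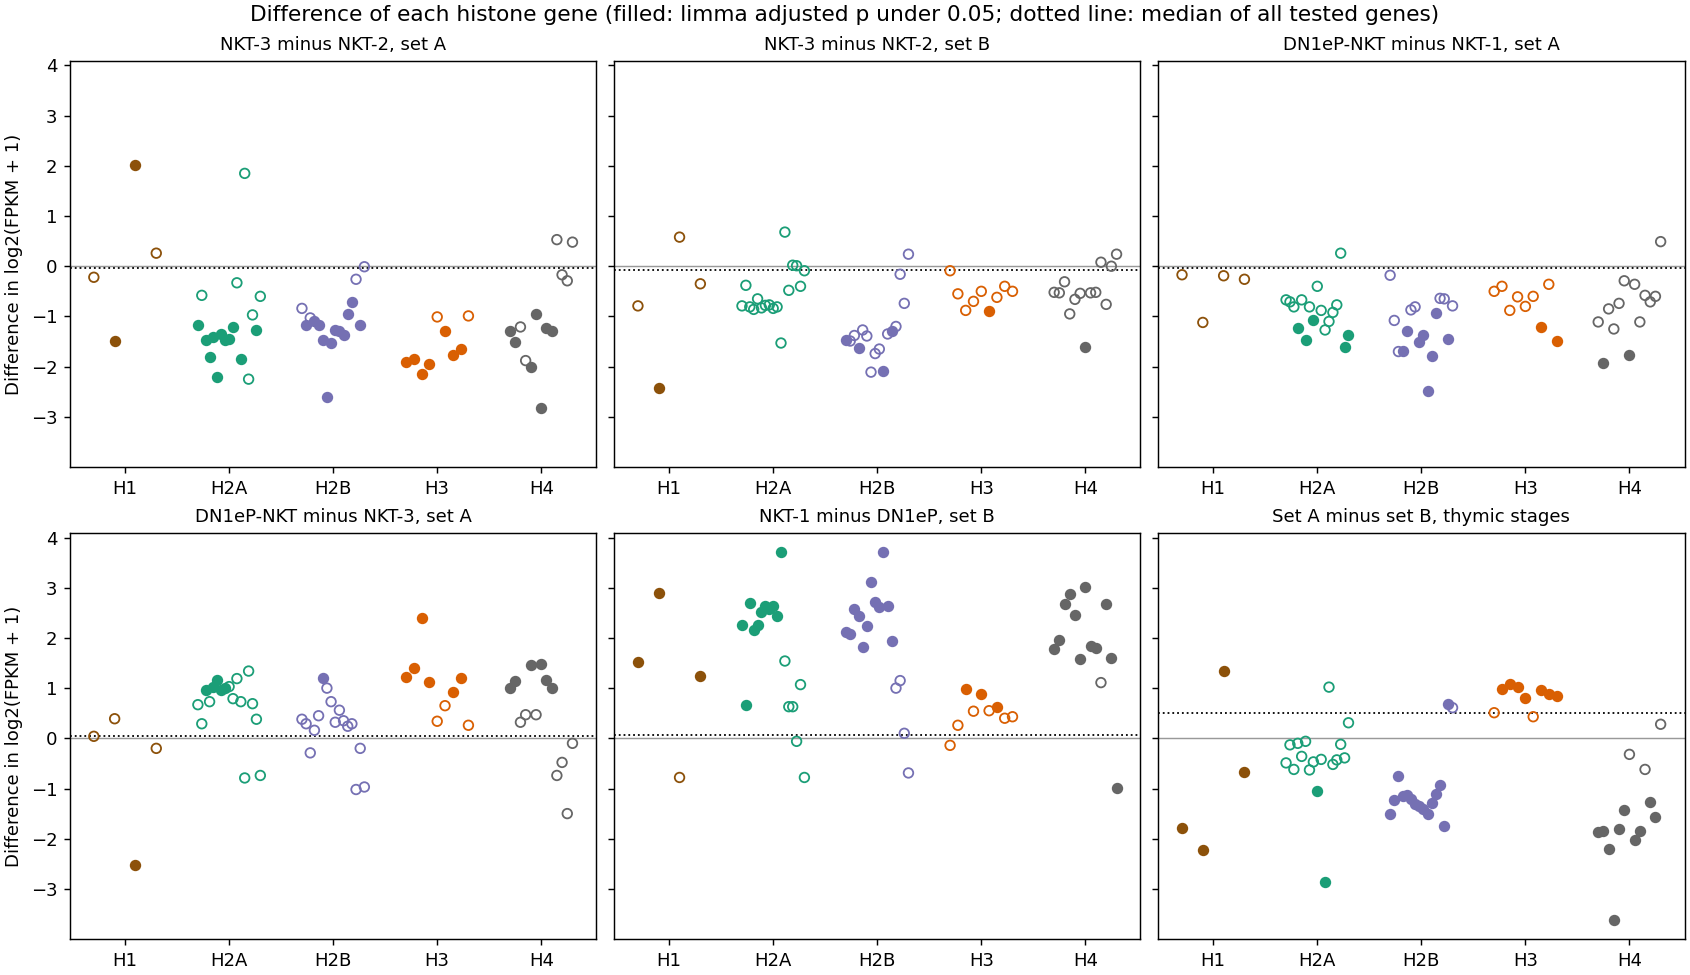
Difference in log2(FPKM + 1) of each histone gene (y axis) by family (x axis) in 6 comparisons; filled points have a limma adjusted p under 0.05 and the dotted line is the median of all tested genes. The filled brown point above 0 in the first panel is Hist1h1c at 2.01, and 7 of 9 H3 genes are filled above 0 in the last panel, of which 0 were called under quantile normalization.

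From NKT-1 to NKT-2 no member passed the limma threshold in either set, which does not show that the levels were equal. In set A, Hist1h2bm (-1.76, limma adjusted p = 0.282) and Hist1h4b (-1.57, limma adjusted p = 0.33) differed without overlap of the libraries. Without the number 1 libraries, 1 H2B gene was lower, where 0.12% of all tested genes were. In set A 0.223% of all tested genes were called, 0.163% higher and 0.06% lower. In set B 0.129% were called, 0.0857% higher and 0.0429% lower, and 6 members in each set had an unadjusted p under 0.05 in limma. The median difference was -0.22 in set A and 0.40 in set B. In set A 7 members were lower and 0 higher in NKT-2 without overlap of the libraries, as were 9.3% and 3.89% of all tested genes. In set B it was 2 lower and 8 higher, where 12.2% and 2.75% of all tested genes were. NKT-2 had the higher mean for 20 of 59 genes in set A and for 49 of 59 in set B. The set by stage term of this step was past the threshold for 0 members and 0% of all tested genes, and 12 members had an unadjusted p under 0.05. In set A the NKT-1 group rests on 2 libraries.

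NKT-1 cells of set B were compared with DN1eP, which share their set. Of the 59 genes, 40 were higher in NKT-1 and 1 was lower, where 27% of all tested genes were called, 15.1% higher and 11.9% lower. The median difference was 1.82, against 0.07 for all tested genes. The higher genes were 3 of 4 H1, 11 of 17 H2A, 12 of 16 H2B, 3 of 9 H3 and 11 of 13 H4. With DN1eP library 1 as the only DN1eP library, whose spread is then assumed to be that of the other groups, 15 members were called and all 15 were higher, where 5.26% of all tested genes were higher and 3.27% lower. The marker sums of other cell types in DN1eP, given above, move with this comparison, and their part in it was not tested. As in any bulk sample, fewer dividing cells and less histone RNA per cell cannot be told apart.

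In DN1eP, 8, 27, 30 and 22 of the 59 genes were listed at 0 in libraries 1 to 4, and libraries 2 to 4 are shallow. Hist1h2bm was at 0.560 FPKM in DN1eP library 1 and listed at 0 in the other 3, and at 19.3, 17.7 and 7.21 in NKT-1 libraries 3 to 5. The difference was 3.71 (SE 0.34, limma adjusted p = 3.82e-06). Hist1h2ao is an H2A gene with 2 loci, and its locus at chr13:21902236-21902749 (mm9) overlaps that of Hist1h2ap. Hist1h2ao was at 1.15 FPKM in DN1eP library 1, near 0 in the others, and at 19.1, 24.8 and 6.87 in NKT-1. It differed by 3.72 (SE 0.48, limma adjusted p = 7.28e-05). No DN1eP library of either gene reached the NKT-1 range.

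Hist1h2bj was at 2.29, 0, 6.20 and 0 FPKM in DN1eP and at 18, 27.8 and 11.8 in NKT-1. This was a difference of 3.12 (SE 0.62, limma adjusted p = 0.00288). Hist1h4i was at 1.11, 0.590, 0.250 and 2.37 FPKM in DN1eP and at 21.6, 13.7 and 10.8 in NKT-1, a difference of 3.02 (SE 0.41, limma adjusted p = 0.000105). Both genes were thus high in all 3 NKT-1 libraries and low in all 4 DN1eP libraries.

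Hist4h4 was the lower member. This gene, the only one of the Hist4 cluster, was at 0.0546, 2.72, 1.48 and 2.53 FPKM in DN1eP and at 0.301, 0.268 and 0.106 in NKT-1, a difference of -0.99. DN1eP library 1 lay below all 3 NKT-1 libraries, so the groups overlapped. Under upper-quartile scaling no member was lower. Hist3h2a, an H2A gene of the Hist3 cluster, was at 1.84, 9.17, 13.8 and 8.65 FPKM in DN1eP and at 4.74, 2.84 and 3.64 in NKT-1, and was not called. The deep library 1 was again the low one. Hist1h1c (-0.78, limma adjusted p = 0.112) and Hist2h2be (0.10, limma adjusted p = 0.841) were not called, while Hist1h2bc was higher by 2.58 (SE 0.39, limma adjusted p = 0.000271).

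NKT-2 against DN1eP gave 46 higher members and 1 lower one, again Hist4h4, where 21.5% of all tested genes were called and 8.09% were higher. The median of the members was 2.45 and of all tested genes -0.08. H4 had 12 of 13 genes higher, H2B 13 of 16, H2A 12 of 17 and H3 7 of 9. Hist1h2bk, an H2B gene, was at 0.728, 0, 1.03 and 0 FPKM in DN1eP and at 8.59, 23.5 and 21.6 in NKT-2 libraries 5 to 7. The difference was 3.67 (SE 0.48, limma adjusted p = 0.000139). Hist1h2bn differed by 3.55 (SE 0.39, limma adjusted p = 2.37e-05), and Hist1h2ao and Hist1h2bm by 3.97 and 3.90. Without the 4 libraries with high Mir682, 29 members were higher, with a median of 1.95, where 2.18% of all tested genes were higher. With DN1eP library 1 alone 28 were, and 2.7% of all tested genes.

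NKT-3 against DN1eP gave 32 higher members and no lower one, where 13.2% of all tested genes were called and 2.28% were higher. The median was 1.49, against -0.16 for all tested genes. H4 (11 of 13), H2A (11 of 17) and H2B (9 of 16) held the called genes along with Hist1h1e, and no H3 gene was called. Hist1h4c, an H4 gene, was at 3.30, 1.78, 0.752 and 1.71 FPKM in DN1eP and at 9.29, 25.9 and 15.8 in NKT-3 libraries 4 to 6. The groups did not overlap, and the difference was 2.60 (SE 0.36, limma adjusted p = 0.00201). In DN1eP libraries 2 to 4, Hist1h4c was listed at the same values as Hist1h4a and Hist1h4k. Hist1h2ad and Hist1h2ah, H2A genes with near-identical values, differed by 2.48 each (SE 0.46, limma adjusted p = 0.00848), and lost the call without a filter (limma adjusted p = 0.053) and without NKT-3 library 6 (limma adjusted p = 0.0642). The count moved with single libraries, and the share of all tested genes called is not given for those exclusions. Without NKT-3 library 6 it was 2, without library 5 it was 14, without DN1eP library 2 it was 20, and without the 4 libraries with high Mir682 it was 0, with a median of 0.64 from NKT-3 library 4 alone and 7 unadjusted p under 0.05, where 0.111% of all tested genes were called. With DN1eP library 1 alone it was also 0, with a median of 1.35 and 28 unadjusted p under 0.05, where 0.257% of all tested genes were called. The erythroid and B cell sums of NKT-3 library 5 stand beside this count, and their part in it was not tested.

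DN1eP-NKT cells were compared with each thymic stage of set A, to ask which stage the cultured cells resemble. Against NKT-1, 17 members were lower and none higher, where 19.6% of all tested genes were called, 9.24% lower and 10.4% higher. The median was -0.85, against -0.04 for all tested genes, and 28 members lay below both NKT-1 libraries in every DN1eP-NKT library, as did 19.7% of all tested genes. Lower genes were 8 of 16 H2B, 5 of 17 H2A, 2 of 9 H3 and 2 of 13 H4. The NKT-1 group rests on 2 libraries, and the count was 4 without NKT-1 library 2 and 10 without NKT-1 library 1. The culture held stroma markers at 74.4 to 385 FPKM in sum, and their part in this difference was not tested.

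Hist1h2bm was at 7.0 and 15.5 FPKM in NKT-1 and at 2.19, 0.982, 0.656 and 0.688 in DN1eP-NKT. It differed by -2.49 (SE 0.50, limma adjusted p = 0.00213). Hist1h4b, an H4 gene, was at 10.2 and 12.1 FPKM in NKT-1 and at 2.40, 1.82, 2.39 and 2.15 in DN1eP-NKT, a difference of -1.93 (SE 0.47, limma adjusted p = 0.00796). In both genes every cultured library lay below both NKT-1 libraries. In DN1eP-NKT libraries 2 to 4, Hist1h4b was listed at the same values as Hist1h4a and Hist1h4k. Hist1h2bn differed by -1.79 (SE 0.31, limma adjusted p = 0.000575), and Hist1h4i, at 7.32, 5.01, 3.23 and 7.41 FPKM against 21.4 and 21, by -1.77 (SE 0.48, limma adjusted p = 0.0165). Hist2h2be was lower by 1.45 on the log2 scale (limma adjusted p = 0.0047), and Hist1h1c (-0.19) was not called. Without NKT-1 library 2, Hist1h2bm, Hist1h4b and Hist2h2be were not called either (limma adjusted p = 0.0587, 0.0771 and 0.0764), and Hist1h4i was not called without either NKT-1 library. Hist1h4b and Hist1h4i were also lost under a pseudocount of 0.1 and without a filter (limma adjusted p = 0.0526 to 0.114).

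Against NKT-2, 13 members were lower and none higher, where 24.3% of all tested genes were called, 10.5% lower. The median was -0.66, against 0.01 for all tested genes. H2B genes were 8 of the 13, but 4 under upper-quartile scaling and 2 without the number 1 libraries, and Hist1h2bj (-1.60, SE 0.51, limma adjusted p = 0.0357) had the largest difference. Its call was lost under a pseudocount of 0.1, without a filter, under upper-quartile scaling, in 1 fit over all libraries and without DN1eP-NKT library 3 or 4 or NKT-2 library 1, 3 or 4 (limma adjusted p = 0.0538 to 0.121). Hist2h2be was at 1.09, 0.456, 1.34 and 1.89 FPKM in DN1eP-NKT and differed from NKT-2 by -1.38 (SE 0.26, limma adjusted p = 0.00114). Hist3h2a was at 1.15, 1.44, 1.81 and 1.28 FPKM in DN1eP-NKT and at 4.41, 4.72, 4.30 and 7.38 in NKT-2, a difference of -1.34 (SE 0.27, limma adjusted p = 0.0018). For these 2 genes the groups did not overlap. The count was 5 without NKT-2 library 1, 20 without NKT-2 library 2, 8 without NKT-2 library 3 and 8 without DN1eP-NKT library 3.

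Against NKT-3, 18 members were higher and 1 lower, where 29.7% of all tested genes were called, 18.3% higher. The share called in either direction is close to that of all genes, with a larger part of the members higher and a smaller part lower. Of all 11663 tested genes 2134 were higher and 1329 lower. The median of the members was 0.56, against 0.05. For 24 members every DN1eP-NKT library lay above every NKT-3 library, as for 20.8% of all tested genes. H3 had 6 of 9 genes higher, with 6 of 13 H4, 5 of 17 H2A and 1 of 16 H2B. Among the H4 genes, Hist1h4a, Hist1h4b, Hist1h4j and Hist1h4k were listed at the same NKT-3 values, 0.686, 0 and 0.753 FPKM. Their calls are therefore not separate measurements. Hist1h3c was at 3.63, 2.18, 8.45 and 11 FPKM in DN1eP-NKT and at 0.336, 0 and 0.340 in NKT-3. It differed by 2.40 (SE 0.51, limma adjusted p = 0.00268) with no overlap. Hist1h4f (1.47, limma adjusted p = 0.0317) was at 12.4 FPKM in DN1eP-NKT library 4, the value also listed there for Hist1h4d. Hist1h4f was at 2.1, 1.08 and 1.58 FPKM in the others. Its call was lost without any 1 of the 3 NKT-3 libraries (limma adjusted p = 0.0572, 0.0605 and 0.133). Hist1h4i (1.48, limma adjusted p = 0.0165) lost its call without NKT-3 library 1 (0.0905) or 3 (0.075), and both genes lost it without a filter (0.132 and 0.0805).

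Hist1h1c was the lower member, at 5.80, 2.25, 4.97 and 1.68 FPKM in DN1eP-NKT against 10.2, 36.9 and 35.1 in NKT-3. The groups did not overlap, and the difference was -2.52 (SE 0.52, limma adjusted p = 0.00271). NKT-1 libraries 1 and 2 had 4.38 and 3.56 FPKM, within the range of the cultured cells. Counts in this comparison were 11 without DN1eP-NKT library 2 or 3 or NKT-3 library 2, 8 without NKT-3 library 1 and 9 without NKT-3 library 3. Under quantile normalization 3 members were higher and 2 lower, where 15.3% of all tested genes were higher and 17.2% lower.

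The starting DN1eP cells are all in set B and their cultured progeny all in set A, so culture and set cannot be told apart without an assumption. With library set as a term, estimated on the thymic libraries, 33 members were higher in DN1eP-NKT and 3 lower, where 32.1% of all tested genes were called. The median was 1.58. Without the term 18 were higher and 1 lower, with a median of 0.66, where 52.6% of all tested genes were called and the median of all genes was 0.50.

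Because all 3 thymic stages occur in both sets, the sets themselves were compared in a fit that holds stage constant. Here 29 members were lower and 9 higher in set A, where 74.7% of all tested genes were called, 54% higher and 20.7% lower. The median of the members was -0.63, while that of all tested genes was 0.51. H4 (10 of 13), H2B (14 of 16), H1 (3 of 4) and H2A (2 of 17) held the lower genes. H3 had 7 of 9 genes higher and none lower, with a median of 0.88. Upper-quartile scaling, which brings the median of all genes to 0.02, left 5 H3 genes higher, and quantile normalization left none, with an H3 median of 0.28. Under these scalings 39 and 45 members were lower and 6 and 0 higher. Of all tested genes, 37.1% and 39% were lower and 39.7% and 36.2% higher, so calls of lower genes rose over all genes too. H2A moved most with the scaling, from 2 to 11 and 16 lower genes.

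Hist1h4d gave the largest difference between sets. This H4 gene (chr13:23673471-23673782, mm9) was at 153, 108 and 76.3 FPKM in NKT-1, at 135, 91.9 and 68.0 in NKT-2 and at 52.3, 40.7 and 53.2 in NKT-3 of set B. In set A it was at 16 and 3.90, at 11.1, 12.8, 10.3 and 4.84 and at 0.686, 3.71 and 1.69 FPKM. All 9 thymic libraries of set B lay above all 9 of set A, with a difference of -3.63 (SE 0.27, limma adjusted p = 4.54e-10). It made 10.7% to 31.0% of the whole histone sum in each thymic library of set B and 0.958% to 7.09% in set A. In DN1eP it was at 10.2, 8.97, 17.3 and 22.9 FPKM and the largest member in 3 of 4 libraries. The deposited model of this gene has 312 bases, while its GENCODE transcript has 1138.

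Hist1h2ao (-2.86), Hist1h1b (-2.22) and Hist1h4c (-2.21) followed. The loci of Hist1h2ao and Hist1h2ap overlap, and their values alternated. In NKT-2 library 6 of set B they were at 26.5 and 0.000512 FPKM. In NKT-2 library 2 of set A they were at 0.000158 and 9.36 FPKM. The part of this division in the set difference of Hist1h2ao was not tested. Hist1h1b was at 11.4 to 20.6 FPKM in NKT-1 and NKT-2 of set B and at 0 to 5.15 in set A. Hist1h1c was the opposite case among the linker genes, higher in set A by 1.35 (SE 0.32, limma adjusted p = 0.000888), a call that was lost under quantile normalization (0.45, limma adjusted p = 0.228). Hist2h2be was higher in set A by 0.69 (limma adjusted p = 0.000624), which fell to 0.21 under upper-quartile scaling (limma adjusted p = 0.229) and turned to -0.15 under quantile normalization (limma adjusted p = 0.406). Without the 4 libraries with high Mir682, 21 members were lower and 10 higher in set A, with a median of -0.17, where 21.4% of all tested genes were lower and 49% higher.

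The genes around histone production were counted in the same fits. From NKT-2 to NKT-3 in set A, 22 of 23 S phase genes fell, with a median of -2.02. Of all 11663 tested genes 1917 fell. Rrm2, a subunit of ribonucleotide reductase, fell by 3.86 on the log2 scale (SE 0.29, limma adjusted p = 1.3e-07), Gins2 of the replicative helicase by 3.44 and the proliferation marker Mki67 by 3.23. Of 17 histone chaperone genes 10 fell, among them Asf1b (-2.85), which hands H3-H4 to assembly, and Chaf1a (-2.48) and Chaf1b (-1.85) of chromatin assembly factor 1. Of 17 genes of histone transcription and 3' end processing 5 fell, with Ncbp2 (-0.99), Eri1 (-0.69) and Ncbp1 (-0.67) first. Of 10 replication-independent histone genes 5 fell, with Cenpa (-2.37), the centromeric H3, H2afx (-2.20) and H2afz (-1.35) first.

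In set B, 16 of 23 S phase genes, 4 of 17 chaperone genes, 1 of 17 processing genes and 2 of 10 replication-independent genes fell in this step. Of all 11663 tested genes 554 fell, and the processing genes were near that share. Gins1 (-2.60), Rrm2 (-2.47) and Tk1 (-2.43), thymidine kinase, had the largest differences of the S phase list. Asf1b (-2.06), Chaf1b (-1.06) and Nasp (-1.03), another histone chaperone, led the chaperones. Ncbp2 (-0.88) was the processing gene, and Cenpa (-2.30) and H2afx (-1.38) were the replication-independent ones.

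Against DN1eP, 20 of 23 S phase genes and 12 of 17 chaperones were higher in NKT-1 and none lower, with Rrm2 (3.67), Tk1 (3.56) and Asf1b (2.76) among them. Of all 11663 tested genes 1760 were higher. In NKT-2 17 S phase and 5 chaperone genes were higher than in DN1eP, as were 943 of all tested genes. In NKT-3 only 1 S phase gene, Mcm2, was higher and 3 were lower, Tyms (-1.98), Mcm7 (-1.03) and Pcna (-0.93). There 32 histone genes were higher, and of all 11663 tested genes 266 were higher and 1279 lower. Tyms was at 6.91 FPKM in the deep DN1eP library 1, 33.8 to 58.1 in libraries 2 to 4 and 3.96 to 11.1 in NKT-3. In DN1eP library 1 Mcm7 (35.55) and Pcna (163.7) were close to NKT-3 library 4 (33.62 and 155.9). With single libraries left out, the count of called histone genes ran from 2 to 34. Lsm11, a U7 particle subunit, was lower than in DN1eP in NKT-1 (-1.25), NKT-2 (-1.26) and NKT-3 (-1.29). It was at 0.946 FPKM in the deep DN1eP library 1 and at 2.41 to 5.035 in the shallow libraries 2 to 4. The thymic libraries of set B had 0.272 to 0.868 FPKM. Npat, the coactivator of histone transcription, was lower than in DN1eP in NKT-3 (-1.25, limma adjusted p = 0.0289). It was at 3.70 FPKM in DN1eP library 1, at 8.28 to 12.68 in libraries 2 to 4 and at 2.62 to 3.14 in NKT-3. The 3 comparisons with DN1eP share its libraries.

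In the cultured cells, all 23 S phase genes were higher in DN1eP-NKT than in NKT-3, with Rrm2 (4.67), Mki67 (4.17) and Tk1 (3.58) first. So were 8 of 17 chaperones, Asf1b (3.43) first, and 2134 of all 11663 tested genes. Slbp, the stem-loop binding protein, was higher by 0.66 (SE 0.18, limma adjusted p = 0.0107). Against NKT-1, 20 of 23 S phase genes were not called, Mki67 was higher (0.74) and Mcm6 (-0.75) and Mcm2 (-0.63) were lower. In the same comparison 17 of 59 histone genes were lower, where 1078 of all 11663 tested genes were lower and 1212 higher. H1f0, the replication-independent linker histone H1.0, was lower by 2.05 on the log2 scale (limma adjusted p = 3.7e-07) and H2afy, macroH2A1, higher by 0.70.

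**Figure D4:**
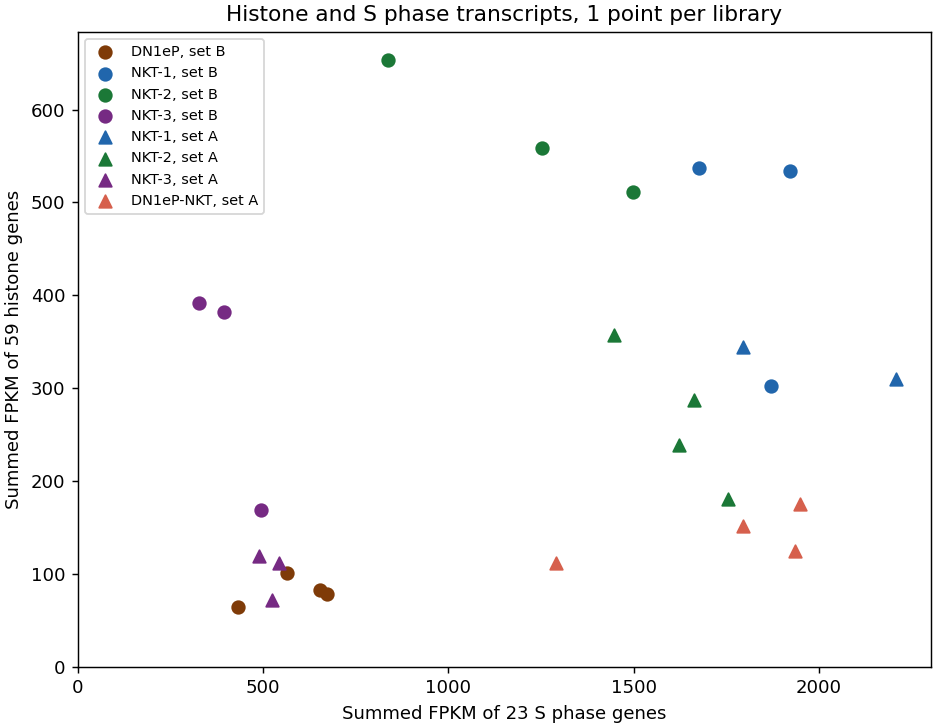
Summed FPKM of the 59 histone genes (y axis) against that of the 23 S phase genes (x axis), 1 point per library, circles for set B and triangles for set A. DN1eP-NKT libraries lie at 1290 to 1950 FPKM of S phase genes with 112 to 176 FPKM of histones, and NKT-3 libraries 5 and 6 lie at 327 to 394 with 382 to 391.

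Set beside each other, the sums separated the groups further. S phase sums were 1290 to 1950 FPKM in DN1eP-NKT, 1796 and 2207 in set A NKT-1 and 1446 to 1754 in set A NKT-2. The histone sum was 6.45% to 9.01% of the S phase sum in DN1eP-NKT, 14% and 19.2% in NKT-1 and 10.3% to 24.7% in NKT-2, so DN1eP-NKT lay below both without overlap. In set A NKT-3 both sums were low and the share was 13.6% to 24.4%. In set B the share was 16.1% to 32.1% in NKT-1 and 34.2%, 78.1% and 44.5% in NKT-2 libraries 5 to 7. In NKT-3 libraries 4 to 6 it was 34.1%, 97.1% and 120%, the high values being those of the libraries with high Mir682.

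Members with long gene models behaved less uniformly than those with short ones. From NKT-2 to NKT-3 in set A, 29 of 40 members with a model of up to 500 bases and 6 of 10 with 506 to 747 bases fell, with medians of -1.33 and -1.18. Of the 9 with 1561 to 8282 bases 3 fell and 1 rose, with a median of -0.60. Against DN1eP, 29 of the 40, 7 of the 10 and 4 of the 9 were higher in NKT-1, with medians of 2.02, 1.99 and 0.67. The 9 genes are Hist1h1c, Hist1h1e, Hist1h2ac, Hist1h2bc, Hist1h2bp, Hist1h2bq, Hist2h2be, Hist3h2a and Hist4h4, and the classes were set after the values were seen, so these are descriptions.

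By cluster, Hist1 held 36 of the 38 genes that fell from NKT-2 to NKT-3 in set A and 39 of the 40 that were higher in NKT-1 than in DN1eP. Of the 8 Hist2 genes 2 fell in the first comparison, Hist2h2ac (-1.27) and Hist2h2be, and 1 was higher in the second, Hist2h4 (1.60). The 2 Hist3 genes were called in neither.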

How the data were processed

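RNA of 26 libraries in 5 groups was compared, in the 2 library sets that the value scale of the files separates (limit of 11 FPKM on the median of genes from 1 FPKM). The deposited values are FPKM per gene with a confidence interval, which the authors made with Cufflinks 2.1.1 after mapping with TopHat2 2.0.6 on mm9 (per the submitters' processing notes). The sources used here do not state how reads shared by near-identical copies were divided. FPKM holds no counts, so depth was read from the deposited intervals (half-width 5.53% to 23.7% at 20 to 100 FPKM).

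Values of rows with 1 symbol were added up. Left out were 13 symbols whose estimate had failed and 86 that some file lacks. Tests used log2(FPKM + 1) for symbols that reach 1 FPKM in 4 or more libraries, in 1 limma fit per library set (limma 3.58.1, R 4.3.3, trend and robust), with p-values adjusted by Benjamini and Hochberg over 11663 genes at 0.05. Fold changes on this scale understate those of low genes. No p-value was computed for sums over members.

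Every tested member may be named. Full values are given for up to 4 called members with the largest difference per comparison and for Hist1h1c, Hist1h2bc and Hist2h2be, and up to 3 called genes of each other list are named. Others named, such as Hist1h1b in set A, Hist4h4 and the H3 examples, were chosen after their values were seen. The members, lists, library sets and tests were chosen with earlier results of these data known.

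Alternatives were a pseudocount of 0.1, no filter, 2 scalings, the highest row per symbol, a replicate block, 1 fit over all libraries and leaving libraries out. Further exclusions were added after seeing the data, namely the 4 libraries with high Mir682, DN1eP libraries 2 to 4, and the number 1 library of each set A group but NKT-3.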

Additional observations from a re-analysis of the deposited data

Results flagged for a closer look

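In groups of 4 libraries, a library is named here when its gap to the nearest other one, over the whole range, passed 0.829, the limit of Dixon's ratio. This happened in 10 of 77 groups looked at. Chance alone gives about 1 in 20 only for independent, normally distributed values. Genes listed at 0 and sums over the same genes do not meet this, so no excess is read from the count. In DN1eP, library 1, the deep one, had the lowest H2B sum, at 12.3 FPKM against 15.6 to 16.2. It also stood alone above 0, or nearly so, for Hist1h2ao at 1.15 FPKM, Hist1h2bf at 0.675, Hist1h2bm at 0.560 and Hist1h2bn at 0.456, all of which the shallow libraries 2 to 4 listed at or near 0. DN1eP library 4 held Hist1h2bc at 2.94 FPKM, against 0 to 0.437 in the others. In DN1eP-NKT, library 4 had the highest H4 sum, at 60.4 FPKM against 22.6 to 27.3, and the highest Hist1h4f, at 12.4 against 1.08 to 2.1. Hist1h4d was listed at the same 12.4 FPKM in that library, so these are not separate measurements. In NKT-2 of set A, library 1, the deep one, held Hist1h2ao at 1.53 FPKM, with the others near 0, and library 4 held Hist3h2a at 7.38 against 4.30 to 4.72. The overlapping Hist1h2ap was at 21.7, 9.36, 16.2 and 18.7 FPKM in NKT-2 libraries 1 to 4.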

How the results depend on the processing

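Of the alternatives for single genes, 1515 kept direction and side of the threshold, 124 lost the call, 20 gained it and 1 turned, Hist2h2be between the sets under quantile normalization (-0.15). Counts of called members that moved by over 1.5 times follow, and the cause was not tested. Without a filter on low values, DN1eP-NKT differed from NKT-1 in 10 members, from NKT-2 in 6 and from NKT-3 in 5, NKT-3 from NKT-2 in 25 (set A) and 3 (set B), and NKT-3 from DN1eP in 5. A pseudocount of 0.1 gave 7 for DN1eP-NKT against NKT-2 and 1 for NKT-3 against NKT-2 in set B. For the latter, upper-quartile scaling gave 3, quantile normalization 2, 1 fit over all 26 libraries 11, and dropping the 2 libraries with the highest erythroid sums (NKT-3 library 5, NKT-2 library 6) 4. That last exclusion gave 12 for NKT-3 against DN1eP. DN1eP-NKT against NKT-3 had 5 under quantile normalization and 10 in 1 fit over all libraries. DN1eP-NKT against DN1eP had 19 without the set term.

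Of the exclusions added after seeing the data, leaving out the 4 libraries with high Mir682 gave 29 for NKT-2 against DN1eP, 0 for NKT-3 against DN1eP and 0 for NKT-3 against NKT-2 in set B. Leaving out DN1eP libraries 2 to 4 gave 15, 28 and 0 for NKT-1, NKT-2 and NKT-3 against DN1eP. Leaving out the number 1 libraries gave 11 for DN1eP-NKT against NKT-1, 4 against NKT-2, and 1 for NKT-2 against NKT-1 in set A. With each library left out in turn, the count ran from 4 to 20 for DN1eP-NKT against NKT-1, from 5 to 20 against NKT-2, from 8 to 23 against NKT-3, from 2 to 34 for NKT-3 against DN1eP, and from 2 to 8 for NKT-3 against NKT-2 in set B. For single-library exclusions, here and above, the share of all tested genes called is not given. A moved count there is therefore not read as a change in the histone genes.

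Replicate numbers were not taken to pair the libraries, since not every same-number pair correlated over 0.1 (7 of 16 did in set A, 0 of 8 in set B). In set A the number 1 libraries of NKT-2, NKT-1 and DN1eP-NKT, the deep ones, correlated at 0.43 to 0.48 and NKT-1 and NKT-2 libraries 2 at 0.30. Over all pairs, the deviations of same-numbered libraries correlated at -0.11 to 0.48 in set A and at -0.35 to 0.02 in set B, and 7 of 13 and 0 of 10 libraries correlated best with their own number. With the replicate number as a block the counts were 7 for NKT-2 against DN1eP, 1 for NKT-3 against DN1eP, 2 for NKT-3 against NKT-2 in set B and 10 between the sets. Under the block Hist1h1c in NKT-3 against NKT-2 of set A was at 1.97 (limma adjusted p = 0.0633).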

Other observations

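Hist1h2ba, known as a testis H2B, was measured in thymic cells at 3.74, 5.68 and 2.32 FPKM in NKT-1 and 3.93, 9.08 and 9.26 in NKT-2 of set B, and was listed at 0 in DN1eP libraries 2 to 4. Its neighbours in sequence are other H2B genes, and the division of shared reads between them is not known here.

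Sympk, a scaffold of the cleavage complex for histone and poly(A) ends, showed the largest set difference of its list, higher in set A by 4.45 on the log2 scale (limma adjusted p = 2.6e-17). It was at 23.9 to 51.4 FPKM in every library of set A and at most 0.999 in set B. H2afx (3.63) and Hira (2.49), an H3.3 chaperone, were also higher in set A, in the direction opposite to most H4, H2B and H1 members.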
